A study of Mus musculus with 20 samples.

Results

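The comparison described here sets tumours treated with 8 Gy of radiotherapy and both anti-SIRPa and anti-PD-1 (RT plus both antibodies, the triple combination) against tumours treated with 8 Gy alone (RT alone), in 4 sorted cell populations. Its members are 8 of the 20 samples of the series, 1 library for each of the 4 populations on each side, and libraries were paired by population. MC38-OVA tumours, from a colon carcinoma line that carries ovalbumin, were grown in C57BL/6 mice. Radiation was given on day 12 in all groups used here. The triple combination added 400 µg of anti-SIRPa on days 12, 14 and 16 and 250 µg of anti-PD-1 on days 12 and 15. Tumours with RT and anti-PD-1 and tumours with RT and anti-SIRPa, which received the same radiation and 1 antibody, are given beside them where a value needs that context, and those 8 libraries also enter the tests within a population. Cells were taken on day 17, 5 days after irradiation. For each treatment the leukocytes of 10 tumours, 1 per mouse, were pooled before the sort. The 4 libraries of a treatment therefore come from 1 pool of animals, and every p-value below measures the spread between populations or between treatments, not the spread between pools or mice. The question is which transcripts differ between the triple combination and RT alone in every population, and which differ in 1 population.

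SIRPa is an inhibitory receptor of macrophages, monocytes, granulocytes and many dendritic cells. Its ligand CD47 is found on most cells, and SIRPa signalling restrains the uptake of CD47-bearing cells by phagocytes. PD-1, encoded by Pdcd1, is displayed by activated T cells and restrains them, and its ligand PD-L1, encoded by Cd274, is induced by interferons on tumour and myeloid cells. CD8 T cells kill target cells with perforin and granzymes, while dendritic cells present antigen to them.

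The 8 libraries held 21522743 to 34189038 estimated counts. Levels are CPM, counts divided by library size after TMM normalisation. Where 4 values are listed, the order is CD8 T first, then CD11c+CD11b+, then CD11c+CD11b- and last CD11c-CD11b+ cells. Cd8a, a chain of the CD8 co-receptor, was at 1181, 2.69, 27.6 and 14.5 CPM with both antibodies, against 796, 1.10, 27.2 and 13.9 CPM with radiotherapy alone. Itgax, which encodes CD11c, was at 48.6, 408, 335 and 74.3 CPM with both antibodies, against 67.6, 417, 347 and 80.04 CPM with radiotherapy alone. Itgam, which encodes CD11b, was at 179, 1645, 66.5 and 1563 CPM with both antibodies, against 290.2, 1535, 117 and 1450.3 CPM with radiotherapy alone. Each sort marker was highest in populations that carry it, but none was at 0 elsewhere. In the CD8 T libraries 12 macrophage genes summed to 2008 CPM with both antibodies and 2848 CPM with RT alone, and none of them was at 0. In the CD11c+CD11b- libraries, labelled as dendritic cells, NK cell genes summed to 2191 and 1985 CPM and genes of cross-presenting dendritic cells (cDC1) to 3220 and 3268 CPM in the same order of treatments. In sorted bulk RNA, fewer cells of a type and less RNA per cell cannot be told apart.

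Across the 4 populations, H19 was the gene that fell with the triple combination. H19 is an imprinted long noncoding RNA of fetal tissues that also hosts a microRNA. It was at 47.6, 95.9, 51.5 and 144 CPM with both antibodies, against 131, 225, 167 and 344 CPM with radiotherapy alone, so the groups overlapped only where the highest value with both antibodies, 144 CPM in CD11c-CD11b+ cells, passed the lowest with RT alone, 131 CPM in CD8 T cells. Within each population the triple library was the lower one, with log2 ratios of -1.46, -1.23, -1.70 and -1.26. Counting error alone gave 95% Poisson intervals of -1.56 to -1.37, -1.29 to -1.17, -1.79 to -1.61 and -1.31 to -1.20 for these ratios. In a fit of the 8 libraries with population as the pairing term, H19 had a log2 fold change of -1.40 ± 0.09 (SE, 4 pairs) and an adjusted p of 0.0111 in the quasi-likelihood test of edgeR, adjusted by Benjamini-Hochberg. It was lower in 4 of 4 pairs. Of 20877 genes tested, this was the only one lower at an adjusted limit of 0.05 (0.00479%), and 0 were higher (0%). An unadjusted p under 0.05 was reached by 2434 genes, and DESeq2 with the same design called 519. Over 9 other settings the adjusted p of H19 ran between 7.51e-37 and 0.150 and passed in 6. It missed the limit without a filter on low counts (0.0756), without the CD8 T pair (0.150) and without the CD11c+CD11b+ pair (0.0782), and its log2 fold change stayed between -1.46 and -1.30 throughout.

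Libraries with a single antibody placed H19 on both sides of RT alone. With RT and anti-PD-1 it was at 36.5, 72.5, 40.1 and 143 CPM, below RT alone in every population. With RT and anti-SIRPa it was at 155, 281, 250.2 and 443 CPM, above RT alone in every population. These comparisons share the RT-alone libraries and are given side by side only. H19 lies at chr7:142575529-142578143 on the minus strand of GRCm38 and is annotated as a long intergenic noncoding RNA. Most counts lay on 1 transcript, H19-202, with 1311, 2923, 1359 and 3769 counts with both antibodies and 2965, 5990, 4472 and 8608 counts with RT alone. The microRNA hairpin Mir675 lies inside H19 and its own feature had at most 4 counts in a library, so the mature forms were not measured here. They are shown as the product encoded by the 1 gene that passed, in RefSeq sequence of GRCm38.p6 with the seed (bases 2 to 8) in capitals; the seeds of the arms differ.
miR-675-3p (chr7:142577078-142577099, minus strand): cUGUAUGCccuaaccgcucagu
miR-675-5p (chr7:142577112-142577133, minus strand): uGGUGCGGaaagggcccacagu

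Of 8590 genes that averaged 10 CPM or more in the pair of every population, 1304 (15.2%) had a lower value with both antibodies in all 4 populations and 972 (11.3%) had a higher one. Ranked by their smallest difference, the 11 lower genes that follow H19 include 6 of the extracellular matrix (Bgn, Col1a2, Postn, Col1a1, Aebp1 and Thbs2), which lie at the upper and at the lower end of the ranking. None of the 11 passed the test over all genes, where their adjusted p-values ran between 0.0646 and 0.147 (edgeR, log2 fold changes -1.13 to -0.57). A filter that kept only those 8590 genes was added after the data were seen. With it, 75 genes passed as lower (0.873%) and 17 as higher (0.198%), and 10 of the 11 were among the 75. The ranking and this test used the same libraries, so that overlap is not separate support. Apart from H19, the genes that passed with it had adjusted p-values of 0.0275 to 0.0495 (edgeR). The last gene inside the ranking, Gng11, had a smallest difference of 0.51 on the log2 scale and the first outside, Ankrd1, of 0.50.

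Matrix genes had the widest single ratios among the 11. Col1a2, a chain of type I collagen, was at 35.7, 50.04, 17.3 and 63.05 CPM with both antibodies, against 62.4, 80.7, 64.97 and 144 CPM with radiotherapy alone. Postn, the matrix protein periostin, was at 20.4, 30.03, 10.01 and 38.9 CPM with both antibodies, against 41.8, 47.7, 37.8 and 79.2 CPM with radiotherapy alone. Bgn, the matrix proteoglycan biglycan, was at 10.2, 15.9, 6.83 and 23.8 CPM with both antibodies, against 18.4, 26.8, 16.8 and 43.2 CPM with radiotherapy alone. All 3, chosen as lower in each pair, were most so in CD11c+CD11b- cells, where the log2 ratios were -1.91, -1.91 and -1.29. Col1a1, the other chain of type I collagen, had log2 ratios of -0.54, -0.69, -1.91 and -0.97 and was the 1 gene of the 11 that missed the limit under the added filter. Thbs2, a matricellular thrombospondin, was at 79.0, 118, 78.9 and 187 CPM with both antibodies, against 121, 171, 122 and 270.1 CPM with radiotherapy alone. Its 4 log2 ratios, -0.62, -0.54, -0.63 and -0.53, were nearly the same in each population. Aebp1, a secreted protein that binds collagen, had log2 ratios of -0.57, -0.54, -0.85 and -0.62.

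The remaining lower genes have roles outside the matrix. Il33, an alarmin cytokine of stromal and epithelial cells, was at 18.1, 28.4, 19.3 and 42.2 CPM with both antibodies, against 32.1, 44.4, 37.3 and 66.9 CPM with radiotherapy alone. Irs1, an adaptor of the insulin and IGF1 receptors, was at 7.61, 12.2, 10.4 and 23.5 CPM with both antibodies, against 14.8, 22.4, 15.98 and 40.8 CPM with radiotherapy alone. Vash2, which removes the last tyrosine of tubulin, was at 8.46, 10.8, 8.83 and 20.5 CPM with both antibodies, against 13.3, 16.8, 13.6 and 30.05 CPM with radiotherapy alone. The 4 pairs of Vash2 differed by almost the same amount, with log2 ratios between -0.65 and -0.55. Gng11, a G protein gamma subunit, had log2 ratios of -0.77, -0.64, -0.72 and -0.51 and Shisal2b had -0.83, -0.82, -0.72 and -0.79. Levels of the 12 lower genes were ordered alike over populations. With both antibodies 12 were highest in CD11c-CD11b+ cells and 12 next highest in CD11c+CD11b+ cells, and the same numbers held with RT alone. Over these genes, H19 included, 8 were also lower in all 4 populations with RT and anti-PD-1 than with RT alone, with 0 higher in all 4. With RT and anti-SIRPa 5 were higher and 1 was lower in all 4. Both sets share the RT-alone libraries with the triple comparison, from which the genes were chosen, and the share over all genes was not counted.

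**Figure D1:**
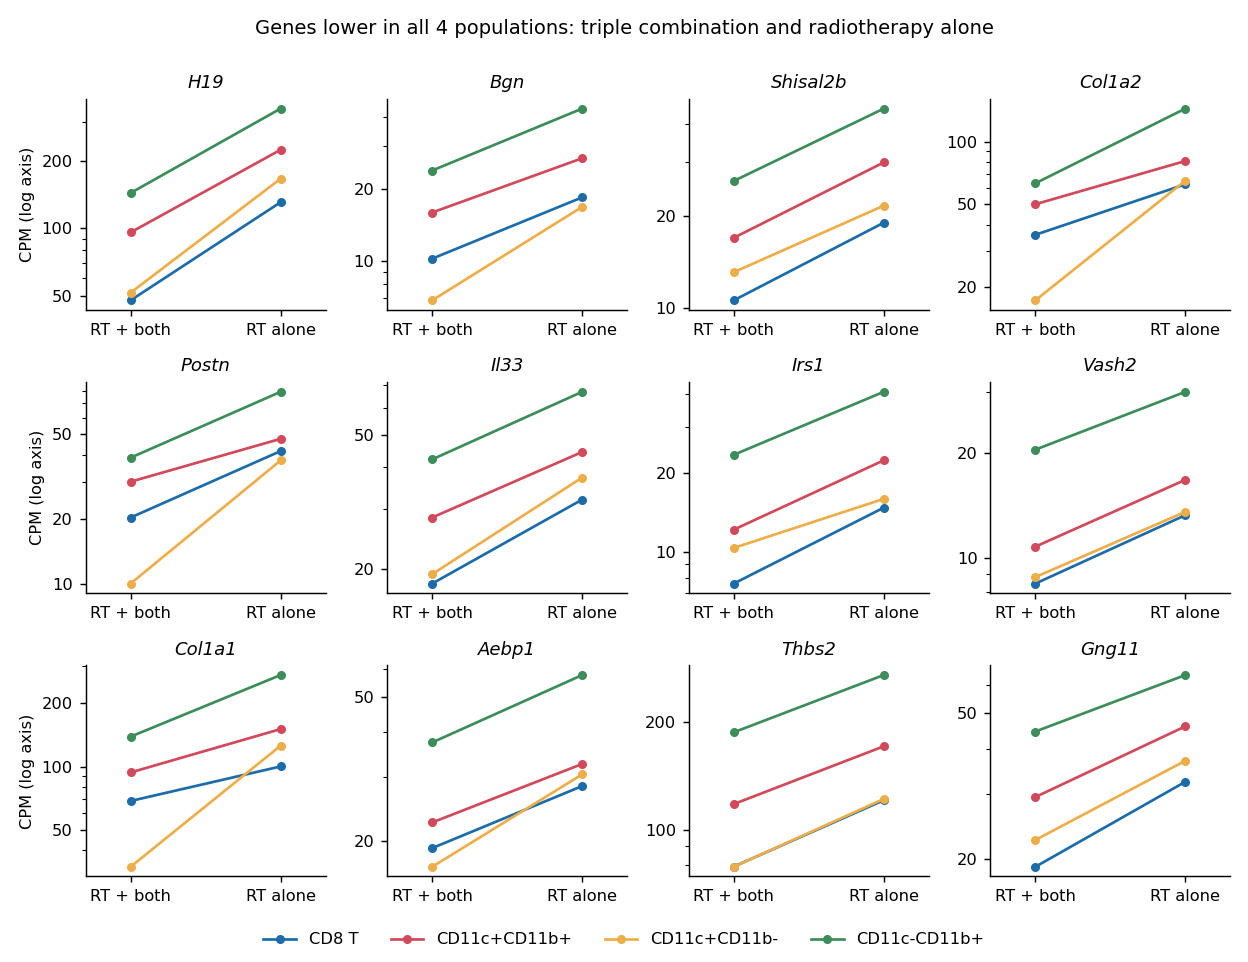
Levels of 12 genes, one panel each, with CPM on a log axis; each point is 1 library, RT plus both antibodies at the left and RT alone at the right, and a line joins the pair of a population. The triple library lies under its RT-alone partner in every population in each panel, as the choice of the genes required.

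Fibroblasts are not among the sorted types, and 16 fibroblast and matrix genes, which include Col1a1, Col1a2, Postn and Bgn, were mostly lower with the genes above. Of the members at 10 CPM or more, 1 of 11, 1 of 12, 0 of 11 and 1 of 12 were higher with both antibodies, with median log2 ratios of -0.51, -0.28, -0.80 and -0.36. Over all genes at that level, 5868 of 9925, 4941 of 9842, 3734 of 10087 and 4457 of 9908 were higher. Their medians were 0.05, 0.00, -0.07 and -0.03. The exception in the list, in 3 populations, was Thy1, which T cells also express. Of the 11 members at that level in every population 10 were lower in all 4, and Col1a2, Postn, Sparc, Dcn and Bgn passed under the added filter. The summed level of the list was 2008, 1362, 1057 and 1988 CPM with both antibodies and 2032, 1679, 1718 and 2737 CPM with RT alone. No member was at 0 in an RT-alone library, and 1 was at 0 in the triple CD11c+CD11b- library. The median ratio to RT alone was -1.08, -0.70, -1.02 and -0.26 with RT and anti-PD-1 and 0.31, 0.45, 0.60 and 0.52 with RT and anti-SIRPa. Cdh1, the cadherin of epithelial and Langerhans cells and 1 of 9 tumour epithelial markers, had log2 ratios of -0.17, -0.57, -0.64 and -0.69 and passed under the added filter, while the other 8 markers were below 10 CPM. The part of stromal or tumour cell RNA in the H19 result was not tested.

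Promoters are shown for 4 of the genes that were lower in every population, to let their letters be compared; they were chosen after the matches were seen. The windows are the 250 bases before an annotated start in RefSeq, GRCm38.p6, and 12 windows belong to those 9 genes. The letters of 6 motifs were searched on both strands. GGAATG, the core of the motif bound by TEAD factors, stood in 4 of the 12 windows, 2 of Il33 and 1 each of Irs1 and Vash2, against 12.6% of all 32851 windows. No window of the higher genes named below held them (0 of 11). TATAAA, the TATA box, stood in 4 of the 12 (Il33, Postn and Thbs2), against 12.4% of all windows. GGGCGG, the GC box, stood in 5 of the 12 (Bgn, Col1a2, Irs1 and Vash2), against 32.7% of all windows. TGANTCA, an AP-1 motif, stood in 1 (Vash2), against 6.75%, while TGTGGT, the RUNX core, and AGGTGTGA, a T-box motif, stood in 0 of the 12, against 14% and 1.12%. A match describes the letters and is not evidence of binding. Capitals mark GGAATG, or TATAAA in Postn.
Il33 (chr19:29924863-29925112, plus strand): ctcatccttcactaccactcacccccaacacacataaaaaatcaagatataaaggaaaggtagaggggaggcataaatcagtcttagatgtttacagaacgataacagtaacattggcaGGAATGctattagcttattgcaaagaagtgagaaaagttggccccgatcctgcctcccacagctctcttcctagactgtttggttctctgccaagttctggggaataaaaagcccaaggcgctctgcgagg
Irs1 (chr1:82291440-82291689, minus strand): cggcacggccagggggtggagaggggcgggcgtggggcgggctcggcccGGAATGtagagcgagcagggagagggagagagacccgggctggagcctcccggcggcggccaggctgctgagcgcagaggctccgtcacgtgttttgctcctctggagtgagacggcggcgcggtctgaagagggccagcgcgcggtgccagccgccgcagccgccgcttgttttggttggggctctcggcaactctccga
Vash2 (chr1:190978999-190979248, minus strand): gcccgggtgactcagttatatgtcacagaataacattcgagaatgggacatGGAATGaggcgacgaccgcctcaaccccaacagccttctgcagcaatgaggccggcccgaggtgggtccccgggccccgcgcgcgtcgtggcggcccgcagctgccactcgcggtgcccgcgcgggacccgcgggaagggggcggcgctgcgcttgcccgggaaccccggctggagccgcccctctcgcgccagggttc
Postn (chr3:54360857-54361106, plus strand): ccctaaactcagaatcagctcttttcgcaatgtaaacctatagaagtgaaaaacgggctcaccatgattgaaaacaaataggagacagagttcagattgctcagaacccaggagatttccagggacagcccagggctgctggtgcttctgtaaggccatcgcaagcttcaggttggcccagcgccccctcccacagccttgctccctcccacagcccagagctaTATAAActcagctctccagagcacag
The match begins 131, 201 and 199 bases before the start in Il33, Irs1 and Vash2, and 26 bases before it in Postn.

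Among genes that were higher with both antibodies in every population, none passed the test over all genes. The 12 with the largest smallest difference had log2 fold changes of 0.34 to 0.57 and adjusted p-values of 0.129 to 0.212 (edgeR). Under the added filter 6 passed, among them Mxd1, Il12rb2, Atg2a, Sipa1l1 and Dusp2. That is not separate support either, because the ranking used the same libraries. Il12rb2, the signalling chain of the interleukin-12 receptor, was at 311, 20.5, 147 and 20.7 CPM with both antibodies, against 228, 14.1, 119 and 15.2 CPM with radiotherapy alone. Dusp2, a phosphatase of MAP kinases in activated immune cells, was at 338, 61.6, 312 and 59.9 CPM with both antibodies, against 226, 51.2, 254 and 47.9 CPM with radiotherapy alone. Mxd1, a partner of MAX that opposes MYC, was at 179, 274, 261 and 653 CPM with both antibodies, against 124, 215, 217 and 499 CPM with radiotherapy alone. Levels of these genes differed widely between cell types and the groups overlapped. Every triple library exceeded its partner, as the choice of the genes required.

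Pde4d, a phosphodiesterase of cyclic AMP, had log2 ratios of 0.39, 0.45, 0.74 and 0.37, and Sipa1l1, an activator of Rap GTPase hydrolysis, had 0.34, 0.30, 0.35 and 0.33. Other members were Atg2a, a lipid transfer protein of autophagy, Dgat1, an enzyme of triglyceride synthesis, the noncoding RNA Lncpint, Vamp1, Slc37a1 and Gdap2, with ratios of 0.27 to 1.20. Dusp2 was the last inside the ranking at 0.27, and Pitpnc1 the first outside at 0.26. With RT and anti-PD-1, 9 of the 12 were above RT alone in all 4 populations. With RT and anti-SIRPa, 1 was higher and 1 lower in all 4. Both counts use the RT-alone libraries against which the 12 genes were chosen, and the share over all genes was not counted. Cblb, a ubiquitin ligase that limits T cell activation, Notch1 and Trpv2 also passed as higher under the added filter. Each had an adjusted p of 0.0492 there (edgeR), close to the limit of 0.05.

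Populations differed in how many genes had a ratio past 2-fold. Taking genes that reached 10 CPM on either side, a ratio past 2-fold was found for 30 higher (0.302%) and 47 lower (0.474%) of 9925 in CD8 T cells and for 25 higher (0.254%) and 28 lower (0.284%) of 9842 in CD11c+CD11b+ cells. In CD11c+CD11b- cells it was found for 68 higher (0.674%) and 91 lower (0.902%) of 10087, and in CD11c-CD11b+ cells for 35 higher (0.353%) and 27 lower (0.273%) of 9908. With CPM by total count, the CD8 T split became 27 higher and 67 lower, 28.7% higher in place of 39.0%. These are ratios of 1 library to 1 library, without a test. Across the 8590 genes, ratios of CD11c+CD11b+ and CD11c-CD11b+ cells followed each other most closely, with a Pearson r of 0.65 and 69.3% of genes on the same side. The lowest r, 0.06 with 56.3% on the same side, was that of CD11c+CD11b- and CD11c-CD11b+ cells, and the lowest share on the same side, 54.1% with an r of 0.17, was that of CD8 T and CD11c+CD11b- cells. These values are across genes, and the populations share 1 pool of tumours for each treatment.

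A test within a population used the 16 irradiated libraries with additive terms for each antibody, so its spread is the departure from additivity. It called 1 of 22023 genes in CD8 T cells (0.00454%) and 0 in each of the 3 myeloid populations (0%). An unadjusted p under 0.05 was reached by 1583 genes in CD8 T cells and by 740, 1929 and 1000 in the others. Of these counts, 740 and 1000 are below 0.05 of the 22023 genes, the share that limit passes where nothing differs. DESeq2 called 19, 14, 31 and 20. A change that differs between 1 population and the mean of the other 3 was found for 0 genes in each of the 4 populations (0%) with edgeR. Here 1027, 495, 1210 and 788 of 22023 genes had an unadjusted p under 0.05, and DESeq2 called 8, 4, 4 and 5. These unadjusted counts are near or below the share of 0.05 that the limit passes where nothing differs. No gene is therefore called limited to a population here, and the values that follow describe single libraries unless a test is named.

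In CD8 T cells the library with both antibodies had higher levels of T cell and cytotoxic transcripts than the library of RT alone. CD8 T cell markers were higher in 12 of 12, with a median log2 ratio of 0.45 beside 0.05 for all genes. The 14 genes of T cell receptor signalling were all higher (median 0.40), led by Cd247, the receptor's zeta chain, at 170.2 CPM with both antibodies and 108 CPM with RT alone. Inhibitory receptors and exhaustion factors were higher in 17 of 17 (median 0.32). Of these, Tox, a transcription factor of exhausted T cells, had a log2 ratio of 0.86, and Lag3, an inhibitory receptor, was at 310.3 CPM with both antibodies and 184 CPM with RT alone. Markers of macrophages were lower in the same comparison, with 0 of 12 higher and a median of -0.56, as did complement genes (median -0.46). Their part in the higher T cell levels was not tested.

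Cytotoxic genes were higher in 13 of 16 in CD8 T cells (median 0.50). Gzmb, the caspase-cleaving granzyme, was at 3469 CPM with both antibodies and 2484 CPM with RT alone, and Prf1, perforin, at 1004 and 690.5 CPM. Ifng, the interferon of type 1 responses, was at 679 and 401 CPM. Gzmc, by contrast, was at 363 CPM with both antibodies and 523 CPM with RT alone, and Gzmg and Lamp1 were also lower. With RT and anti-PD-1 the cytotoxic list had a median of 0.59 relative to RT alone, and with RT and anti-SIRPa -0.25. The matching values for CD8 T markers were 0.54 and -0.07. All of these are set against the same RT-alone library.

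Cytotoxic transcripts were also higher in the myeloid sorts that carry CD11b. In CD11c-CD11b+ cells 13 of 13 were higher, with a median of 0.56 beside -0.03 for all genes, and in CD11c+CD11b+ cells 9 of 10 (median 0.27). In CD11c+CD11b- cells, whose levels of these genes were near those of CD8 T cells, 7 of 15 were higher (median -0.02), and with CPM by total count 8 were (median 0.04), so the direction there turns with the scaling. Prf1 was at 1004, 40.6, 955 and 83.7 CPM with both antibodies, against 690.5, 25.8, 932 and 47.2 CPM with radiotherapy alone. The level in the CD11b-bearing sorts was low beside that in the CD8 T sort. Markers of NK cells were also higher in CD11c-CD11b+ cells, where their summed level was 166 CPM with both antibodies and 89.4 CPM with RT alone, and CD8 T markers summed to 119 and 100.4 CPM. The NK and cytotoxic lists share Gzma, which was at 87.8 and 36.8 CPM in these cells, so the lists are not separate observations. Of the 5 NK markers at 10 CPM or more there, 4 were higher and 1 was lower. The part of carried-over lymphocyte RNA was not tested.

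**Figure D2:**
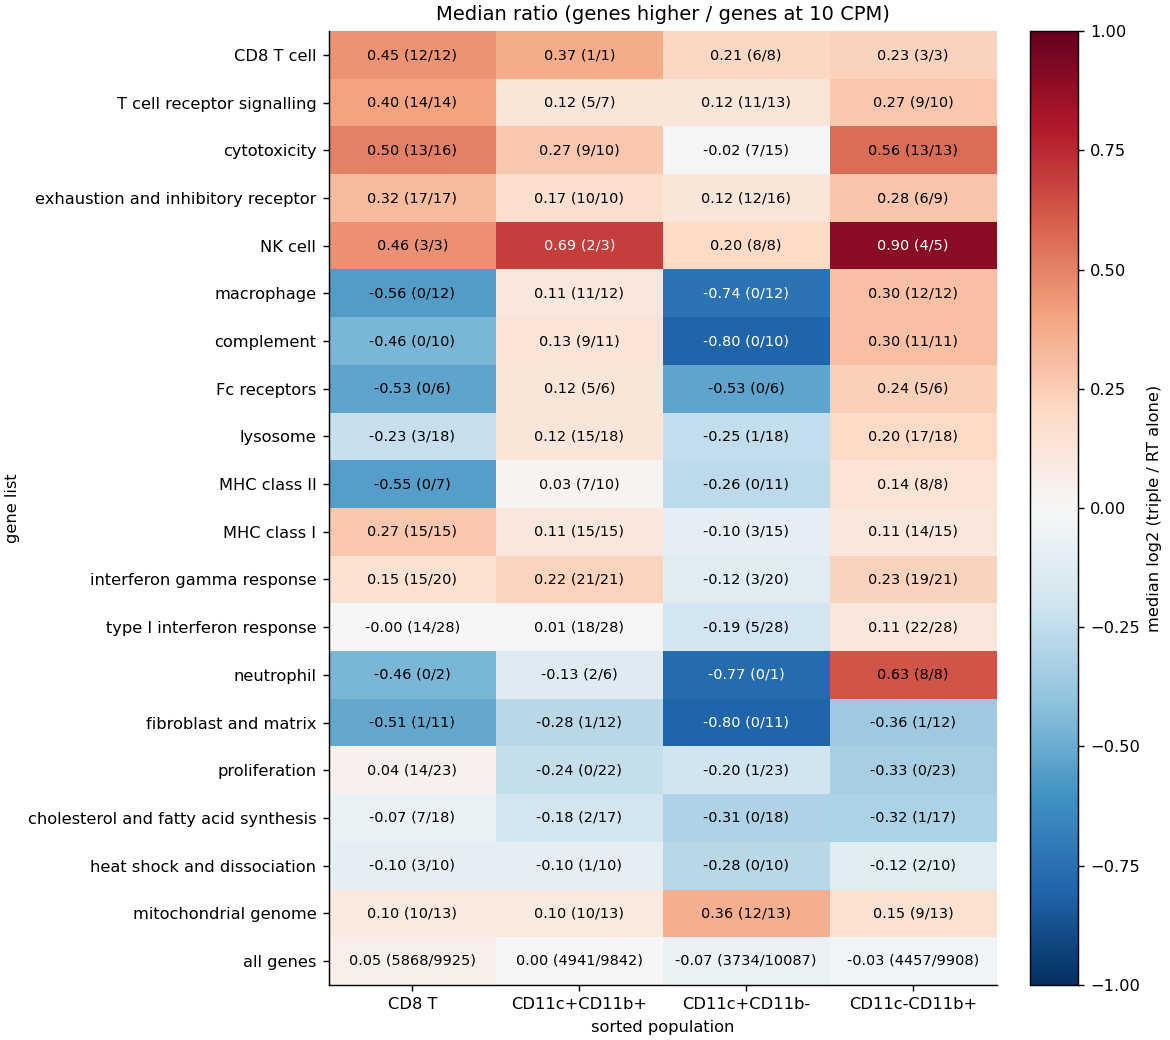
Median log2 ratio of RT plus both antibodies to RT alone for gene lists (vertical) in each population (horizontal), with the number of members higher of those at 10 CPM or more printed in each cell and colour for the median. Macrophage and complement lists are lower in CD8 T and CD11c+CD11b- cells and higher in CD11c-CD11b+ cells, and the fibroblast and matrix list is lower in all 4 columns.

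Myeloid genes separated the 3 myeloid sorts. Macrophage markers were higher with both antibodies in 12 of 12 in CD11c-CD11b+ cells (median 0.30) and in 11 of 12 in CD11c+CD11b+ cells (median 0.11), but in 0 of 12 in CD11c+CD11b- cells (median -0.74). Apoe, a lipid carrier of macrophages, was at 834, 5790.3, 269.7 and 3860.1 CPM with both antibodies, against 1115, 4729.7, 447 and 2330.5 CPM with radiotherapy alone. C1qb, a chain of the complement recognition protein C1q, was at 171, 1290.2, 58.1 and 543 CPM with both antibodies, against 260, 1214, 103 and 406 CPM with radiotherapy alone. Apoe was highest in the sorts with CD11b, where the triple library exceeded its partner, and lower than its partner in the others. Complement genes followed the same pattern, with medians of 0.13, -0.80 and 0.30 in the 3 myeloid sorts. The same lists against RT alone had macrophage medians of -0.07, -1.11 and 0.44 with anti-PD-1 and 0.08, -0.32 and -0.52 with anti-SIRPa. The difference between sorts was not tested for either list.

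Genes induced by interferon gamma were higher in 21 of 21 in CD11c+CD11b+ cells (median 0.22) and 19 of 21 in CD11c-CD11b+ cells (median 0.23). In CD8 T cells 15 of 20 were higher (median 0.15), and in CD11c+CD11b- cells 3 of 20 (median -0.12), which became 8 of 20 (median -0.05) with CPM by total count. Nos2, inducible nitric oxide synthase, was at 47.3, 302, 25.3 and 275 CPM with both antibodies, against 42.6, 163, 28.6 and 181 CPM with radiotherapy alone. Cxcl9, a chemokine that draws activated T cells, was at 20.5, 152, 39.5 and 115 CPM with both antibodies, against 22.2, 132, 48.3 and 72.4 CPM with radiotherapy alone. In the CD11b-bearing sorts both genes were higher with the triple combination than with RT alone, and in CD11c+CD11b- cells both were lower, with log2 ratios of -0.18 for Nos2 and -0.29 for Cxcl9. MHC class I genes were higher in 15 of 15, 15 of 15, 3 of 15 and 14 of 15, with medians of 0.27, 0.11, -0.10 and 0.11. The 3 became 5 with CPM by total count. In CD11c+CD11b- cells 3734 of all 10087 genes were higher, with a median of -0.07, so the class I median there was close to that of all genes. MHC class II genes, which present antigen to CD4 T cells, had medians of -0.55, 0.03, -0.26 and 0.14. In CD11c+CD11b+ cells the class II count was 7 of 10 and became 5 of 10 with CPM by total count.

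Neutrophil genes stood out in CD11c-CD11b+ cells, where 8 of 8 were higher with both antibodies (median 0.63, beside -0.03 for all genes). S100a9, a calcium-binding protein of neutrophils and monocytes, was at 337 CPM with both antibodies, 605 CPM with anti-PD-1, 1443 CPM with anti-SIRPa and 183 CPM with RT alone. S100a8, its partner, was at 164, 324, 706 and 99.4 CPM in that order. The triple library lay above RT alone and below both single-antibody libraries. The median of the 8 genes relative to RT alone was 1.11 with anti-PD-1 and 2.02 with anti-SIRPa.

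**Figure D3:**
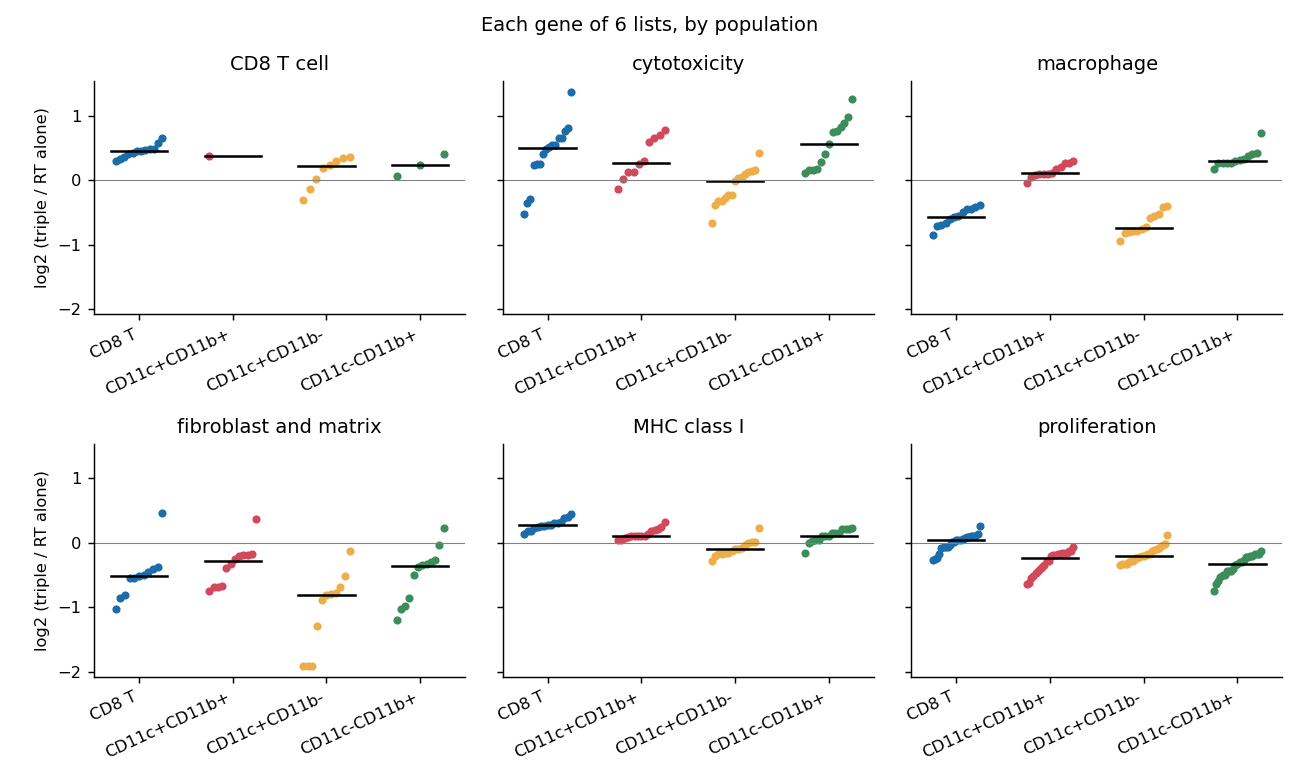
Log2 ratio of RT plus both antibodies to RT alone for single genes of 6 lists, by population; each point is 1 gene at 10 CPM or more, black bars are medians and the grey line at 0 marks equal levels. Macrophage genes lie above 0 in CD11c-CD11b+ cells and below 0 in CD8 T and CD11c+CD11b- cells.

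Proliferation genes were lower in the myeloid sorts. Of the list's members, 0 of 22 were higher with both antibodies in CD11c+CD11b+ cells (median -0.24), 1 of 23 in CD11c+CD11b- cells (median -0.20; 4 of 23 with CPM by total count) and 0 of 23 in CD11c-CD11b+ cells (median -0.33). In CD8 T cells 14 of 23 were higher (median 0.04), and with CPM by total count 8 were (median -0.04), so the direction there turns with the scaling. Top2a, the topoisomerase of dividing cells, was at 760.4, 185, 500.3 and 249 CPM with both antibodies, against 804, 240.3, 545 and 349 CPM with radiotherapy alone. It was lower in each pair, by little in CD8 T and CD11c+CD11b- cells. Against RT alone the list's medians were 0.21, -0.76, -0.36 and -0.49 with anti-PD-1 and -0.17, 0.43, 0.11 and 0.34 with anti-SIRPa. Genes of cholesterol and fatty acid synthesis were higher in 7 of 18, 2 of 17, 0 of 18 and 1 of 17, with medians of -0.07, -0.18, -0.31 and -0.32; the 7 of 18 in CD8 T cells became 4 with CPM by total count. No proliferation gene passed under the added filter.

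Gzma (chr13:113093825-113100981), a tryptase of cytotoxic granules, was at 123, 46.4, 1052 and 87.8 CPM with both antibodies, against 47.5, 28.6, 991 and 36.8 CPM with radiotherapy alone. The triple value was the higher in each pair, by log2 ratios of 1.37, 0.70, 0.09 and 1.25, and CD11c+CD11b- cells had the highest level and nearly no difference. In CD11c-CD11b+ cells the transcript Gzma-201 had 1505 counts with both antibodies and 950 with RT alone, while Gzma-202 had 812 and 0, so much of the ratio there lay on the second transcript. Counting intervals of the ratio were 1.27 to 1.47 in CD8 T cells and 0.06 to 0.11 in CD11c+CD11b- cells. With anti-PD-1 it was at 142, 48.3, 972 and 132 CPM and with anti-SIRPa at 32.3, 21.8, 1326 and 17.2 CPM. The paired fit gave a log2 fold change of 0.85 ± 0.20 and an adjusted p of 0.187 (edgeR), and none of 9 other settings passed (0.0506 to 0.588). Its promoter window held the letters TGTGGT, the core motif of RUNX factors, once over both strands, as did 14% of all windows.

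Cd38 (chr5:43868553-43912375), an enzyme that consumes NAD on the surface of activated T cells and myeloid cells, was at 44.5, 46.6, 27.7 and 28.2 CPM with both antibodies, against 25.6, 24.5, 24.6 and 12.6 CPM with radiotherapy alone. It was higher in 4 of 4 pairs, with log2 ratios of 0.80, 0.93, 0.17 and 1.16. RT with anti-PD-1 gave 46.3, 49.6, 34.2 and 36.8 CPM and RT with anti-SIRPa 23.1, 31.9, 18.7 and 15.7 CPM. The paired log2 fold change was 0.77 ± 0.15 with an adjusted p of 0.147 (edgeR), and 1 of 9 other settings, DESeq2, passed (0.00103 to 0.433). As for Gzma, the smallest difference lay in CD11c+CD11b- cells.

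Dgkz (chr2:91932824-91975864), a diacylglycerol kinase that dampens T cell receptor signals, was at 192, 90.7, 45.6 and 43.6 CPM with both antibodies, against 64.9, 27.4, 57.02 and 39.5 CPM with radiotherapy alone. The triple library exceeded its partner in CD8 T and CD11c+CD11b+ cells, by log2 ratios of 1.56 (counting interval 1.48 to 1.65) and 1.73 (1.61 to 1.85), and not in CD11c+CD11b- cells (-0.32). With anti-PD-1 it was at 136, 64.9, 53.4 and 74.9 CPM and with anti-SIRPa at 86.2, 38.5, 56.9 and 54.7 CPM. In CD8 T cells most of the difference lay on 1 transcript, Dgkz-201, which had 4599, 967, 859 and 210 counts with both antibodies and 940, 100, 404 and 255 with RT alone. In CD11c+CD11b- cells that transcript was higher with both antibodies while the gene was not, and Dgkz-212 had 163 counts with both antibodies and 801 with RT alone. The paired fit gave 0.79 ± 0.34 with an adjusted p of 0.420 (edgeR), and no setting passed (0.242 to 0.796). An exon of Dgkz overlaps Gm9821 on the other strand.

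Neat1 (chr19:5824708-5845478), the long noncoding RNA on which nuclear paraspeckles assemble, was at 339.9, 575, 719.6 and 1254 CPM with both antibodies, against 219, 544, 213 and 737 CPM with radiotherapy alone. It was higher in each pair, with log2 ratios of 0.63, 0.08, 1.76 and 0.77. The widest difference lay in CD11c+CD11b- cells, where it was at 719.6 CPM with both antibodies, 816 CPM with anti-PD-1, 339.9 CPM with anti-SIRPa and 213 CPM with RT alone. Nearly all counts were assigned to 1 transcript, Neat1-201, with 18792 counts with both antibodies and 5698 with RT alone in those cells. The paired fit gave 0.81 ± 0.23 with an adjusted p of 0.244 (edgeR), and no setting passed (0.138 to 0.483).

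**Figure D4:**
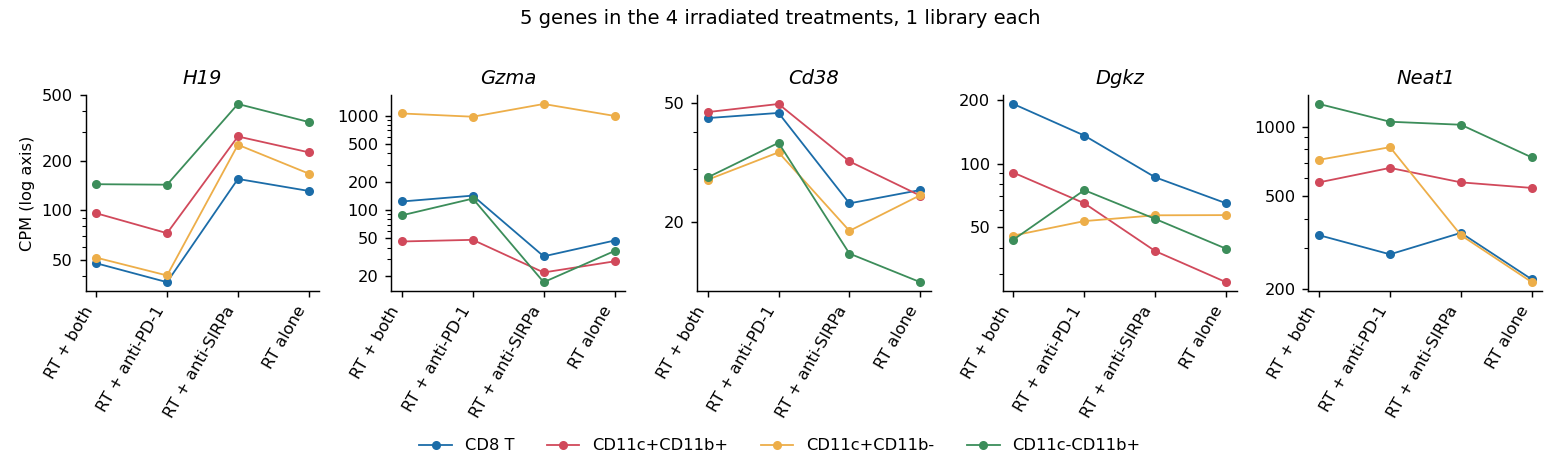
Levels of H19, Gzma, Cd38, Dgkz and Neat1 in CPM on log axes, with 1 point per library for RT plus both antibodies, RT with anti-PD-1, RT with anti-SIRPa and RT alone; colours and lines mark populations. H19 with both antibodies lies beside the anti-PD-1 library in each population and under RT alone.

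Other structural noncoding RNAs of CD11c+CD11b- cells had wide ratios in both directions. Malat1, a nuclear RNA of speckles, was at 10069.7 CPM with both antibodies and 6213 CPM with RT alone, and Kcnq1ot1, an imprinted antisense RNA, at 87.1 and 37.1 CPM. Rpph1, the RNA of RNase P, was at 219 CPM with both antibodies and 904 CPM with RT alone. Rmrp, the RNA of RNase MRP, was at 32.5 and 143 CPM. Of the 10 nuclear and structural noncoding RNAs of the list at 10 CPM or more in these cells, 5 were higher and 5 lower with both antibodies, with a median log2 ratio of -0.08. The genes named here are among the widest of both directions, and none of the list passed. With anti-PD-1 these genes were at 10429, 68.5, 210.2 and 31.2 CPM, and with anti-SIRPa at 5851, 58.2, 1534 and 245 CPM. Exons of Rpph1 overlap Ccnb1ip1 and those of Kcnq1ot1 overlap Kcnq1, so part of their counts is uncertain. Rpph1 and Rmrp RNAs carry no poly(A) tail.

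**Figure D5:**
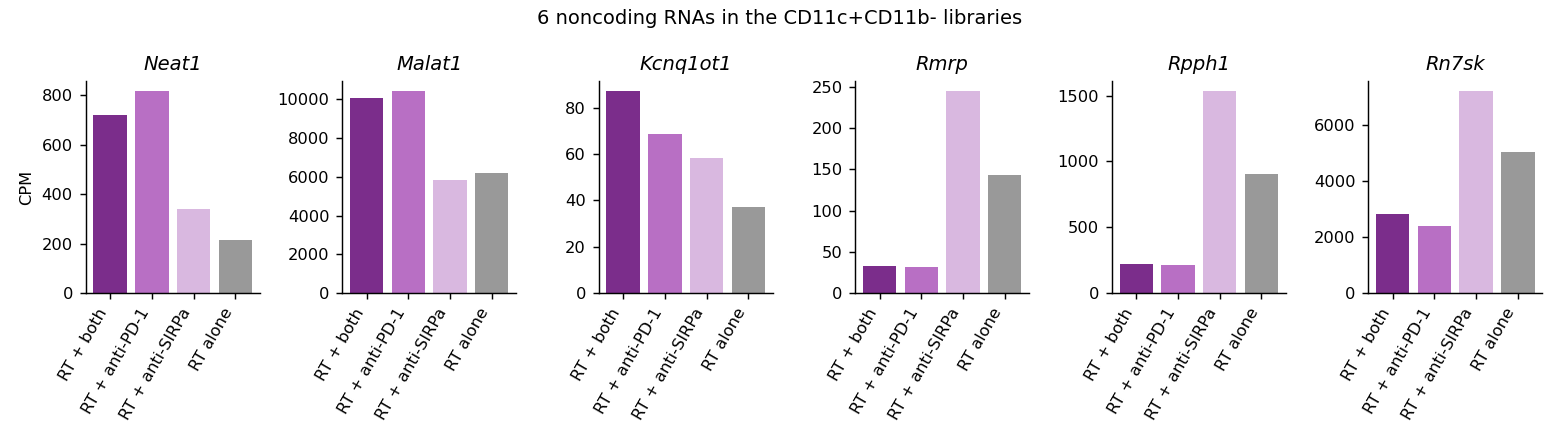
Levels of 6 structural noncoding RNAs in the CD11c+CD11b- libraries, in CPM on linear axes that start at 0; each bar is 1 library, from RT plus both antibodies at the left to RT alone at the right. Neat1, Malat1 and Kcnq1ot1 are higher, and Rmrp, Rpph1 and Rn7sk lower, with both antibodies than with RT alone.

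Of the genes for the antibodies' targets and their ligands, none passed. Sirpa was at 139, 1248, 99.1 and 775 CPM with both antibodies, against 244, 1166, 158 and 683 CPM with radiotherapy alone. It was lower in the sorts where macrophage markers were also lower, CD8 T and CD11c+CD11b- cells, and close to its partner in the CD11b-bearing sorts. Cd47 had log2 ratios of 0.09, -0.02, 0.04 and 0.03. Pdcd1 in CD8 T cells was at 341 CPM with both antibodies and 267 CPM with RT alone. Cd274 was at 136, 488, 224 and 511 CPM with both antibodies, against 126, 379, 209.8 and 343 CPM with radiotherapy alone. Adjusted p-values of the paired fit for Sirpa, Cd47, Pdcd1 and Cd274 were 0.584, 0.828, 0.276 and 0.297 (edgeR).

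A ratio past 2-fold in 1 population and under 1.5-fold in every other population that expressed the gene was found for 36 genes at 20 CPM and 50 counts or more. None passed the test of the difference between populations. For 10 of them the leading transcript had 0 counts in 1 library of the pair, and 16 had exons on another gene. The part of read assignment in these ratios was not tested. In CD8 T cells Penk, the enkephalin precursor, was at 45.5 CPM with both antibodies and 19.98 CPM with RT alone, and Trib2, a pseudokinase, at 22.0 and 10.6 CPM. The 1 gene called in CD8 T cells by the within-population test, a second gene model named Myl12b, had 1287 counts on its transcript with both antibodies and 0 with RT alone. That model shares exons with Myl12a and Myl12b and is uncertain. Neb likewise had 2158 counts of its leading transcript with both antibodies and 0 with RT alone.

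In CD11c-CD11b+ cells Gimap4, a GTPase of lymphocytes, was at 31.7 CPM with both antibodies and 14.2 CPM with RT alone. Its log2 ratios in the 4 populations were 0.45, 0.40, 0.24 and 1.15. It was thus higher in each pair, and its higher level was not confined to CD11c-CD11b+ cells. Lymphocyte markers were also higher in CD11c-CD11b+ cells, as given above. In CD11c+CD11b- cells 13 genes were lower and 5 higher, the most of any population. Of the 13, 8 were histone genes, and 7 of these encode histone H4, for example Hist1h4j at 22.01 and 54.02 CPM and Hist1h4a at 43.9 and 96.9 CPM. The 7 H4 genes were also lower, by less, in each CD11b-bearing sort, so their lower levels were not confined to CD11c+CD11b- cells. Their log2 ratios in CD11c+CD11b+ and CD11c-CD11b+ cells were between -0.54 (Hist1h4j) and -0.10 (Hist4h4). In CD8 T cells none of the 7 was lower, with log2 ratios of 0.01 to 0.34. Histone H4 genes are near-identical copies that share reads, and their RNAs also carry no poly(A) tail. In CD11c+CD11b+ cells the 2 such genes, Evi2 and Sarnp, both have exons on another gene.

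Whether the triple library departs from the sum of the 2 single-antibody differences was tested with 1 term common to the populations, and 11 of 22023 genes passed (0.0499%), with 334 called by DESeq2 and 0 by edgeR without a filter on low counts. Libraries at 0 underlie 4 of the 11 (Hist2h2aa2, Qser1, Gal3st4 and Gm49510). S100a9 and G0s2, an inhibitor of lipolysis, had departures of -3.06 and -2.73 on the log2 scale (adjusted p = 0.0405 for each by edgeR), so the triple libraries lay below the sum. Lamb1, a laminin chain, departed by -2.97. Vdr, the vitamin D receptor, Ass1, an enzyme of arginine synthesis, and Ifit1bl1, an interferon-induced gene, departed by 0.96, 0.83 and 0.94, and the triple libraries lay above the sum. Vdr was at 7.25, 85.7, 45.6 and 46.98 CPM with both antibodies, 3.81, 77.1, 59.1 and 42.2 CPM with anti-PD-1, 6.20, 39.04, 16.8 and 26.9 CPM with anti-SIRPa and 7.12, 69.6, 44.5 and 43.3 CPM with RT alone. It was low with RT and anti-SIRPa in the myeloid sorts and near RT alone with both antibodies. H19 had a departure of -0.12 (adjusted p = 0.949).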

How the data were processed

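The authors deposited estimated counts per transcript, all whole numbers. FastQC 0.11.8, HISAT2, StringTie and edgeR 3.34.0 were run with GRCm38, per the submitters' processing notes. Versions of HISAT2 and StringTie and the strandedness of the libraries are not stated there. Of 142699 transcripts, 141469 were matched to the annotation and summed to 55260 genes; the 1230 others held at most 0.399% of a library. No count was rounded, and raw reads were not used.

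Genes were kept by filterByExpr (minimum count 10, minimum total 15), normalised by TMM and tested with edgeR 4.0.16 (limma 3.58.1, R 4.3.3), Benjamini-Hochberg adjustment over all genes tested and a limit of 0.05. The paired fit had 4 population terms and 1 treatment term; the pairing is the design's own. Library ratios used a prior count of 2, and 95% Poisson intervals cover counting error only. Alternatives were RLE scaling, no filter, DESeq2 1.42.0, 16 libraries in the shared fit, each population left out, and, for ratios, other priors and level limits. Tables and plots were made in Python 3.11.15 (scipy 1.17.1, pandas 2.3.3, matplotlib 3.10.9, numpy 2.4.6), and the fits were tested on simulated data.

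Genes were named as those that passed, or else the 12 per direction with the largest smallest ratio over the 4 populations. Added to these were up to 6 genes per population and direction past 2-fold in 1 population, the 5 genes given with the comparison, the antibody targets, and up to 4 members of each of 47 gene lists. The members and lists were chosen with earlier results of these data known. The untreated libraries were compared in no test or ratio. They did enter the scaling factors behind the CPM values, the library ratios and the added filter. A few of the named genes are left out of the text.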

Additional observations from a re-analysis of the deposited data

Results flagged for a closer look

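Macrophage markers had a median log2 ratio 1.04 higher in CD11c-CD11b+ cells than in CD11c+CD11b- cells. With both antibodies 12 of 12 were higher in CD11c-CD11b+ cells and 0 of 12 in CD11c+CD11b- cells. The difference between the populations was not tested for the list. Complement genes differed by 1.10 in the same way, with 11 of 11 and 0 of 10 higher, and this difference was not tested either. The lists share the C1q genes. Departure from additivity of the 2 antibodies was found for 11 genes by the test of that difference.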

How the results depend on the processing

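The count of genes with a shared change was 1. It was 92 among genes at 10 CPM in every population, 3 with 16 libraries, 519 with DESeq2 (275 higher, 244 lower), 0 without a filter and 0 to 4 when a population was left out. Under the first of these 8590 genes were tested and 1708 had an unadjusted p under 0.05 (edgeR). In the main fit these numbers were 20877 and 2434. The causes of the different counts were not tested. All 92 were among the 519, of which they are 17.7%. The count was 0 without CD8 T or without CD11c+CD11b+ cells, 2 without CD11c-CD11b+ cells and 4 without CD11c+CD11b- cells. Within populations DESeq2 called 19 genes in CD8 T cells, 14 in CD11c+CD11b+, 31 in CD11c+CD11b- and 20 in CD11c-CD11b+ cells; fits of 1 population alone called 24, 15, 3 and 0; CD8 T cells had 0 without a filter. For the difference of a population from the others DESeq2 called 8, 4, 4 and 5 genes, and leaving out a comparator gave 0 to 1 for CD8 T, 0 to 1 for CD11c+CD11b+ and 0 to 3 for CD11c+CD11b- cells, each highest without CD11c-CD11b+ cells. Departures from additivity numbered 334 with DESeq2 and 0 without a filter. Ratios past 2-fold numbered 844, 507, 1454 and 667 at a limit of 1 CPM and 15, 15, 35 and 16 at 50 CPM; other priors and total-count scaling stayed within 1.5 times. Of 287 values of single genes, 243 kept direction and side of the limit, 41 newly passed, 3 no longer passed and 0 turned direction.

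The pools are 1 per treatment, so differences between mice or between sorts cannot be told apart from the treatment. Genes between 1 and 10 CPM, with the fewest counts, made up most of the ratios past 2-fold at the lower limit. Strand was not stated, so genes with antisense partners are uncertain. DESeq2 gave no adjusted p for 8095 genes of the paired fit.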

Other observations

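Transcripts of the mitochondrial genome, which encode subunits of the respiratory chain, were higher with both antibodies in 10 of 13 (median 0.10), 10 of 13 (median 0.10), 12 of 13 (median 0.36) and 9 of 13 (median 0.15), and 6 of 13 were higher in all 4 populations. Their median relative to RT alone was -0.29, -0.38, -0.14 and 0.27 with anti-PD-1 and -0.12, -0.14, 0.24 and 0.56 with anti-SIRPa. Heat shock genes, which also respond to tissue dissociation, were higher in 3 of 10 (median -0.10), 1 of 10 (median -0.10), 0 of 10 (median -0.28) and 2 of 10 (median -0.12), and 7 of 10 were lower in all 4 populations. Glycolysis and hypoxia genes were higher in 3 of 19 in CD11c+CD11b- cells (median -0.23) and in 16 of 20 in CD11c-CD11b+ cells (median 0.07). Over all genes at 10 CPM or more, 5868 of 9925, 4941 of 9842, 3734 of 10087 and 4457 of 9908 were higher. Their medians were 0.05, 0.00, -0.07 and -0.03. Of the 8590 genes at that level in every population, 11.3% were higher and 15.2% lower in all 4. With CPM by total count the mitochondrial median in CD8 T cells became 0.02. None of the listed genes passed the paired test under either filter.

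In CD11c+CD11b- cells, markers of plasmacytoid dendritic cells were higher in 1 of 10 (median -0.35), those of CD11b-type dendritic cells (cDC2) in 0 of 8 (median -0.51) and those of mature dendritic cells in 2 of 12 (median -0.16; 4 of 12 with CPM by total count). The cDC2 list includes Itgam and Sirpa, whose log2 ratios in CD11c+CD11b- cells were -0.82 and -0.67. Over all genes in those cells 3734 of 10087 were higher (median -0.07). In CD11c+CD11b+ cells mature dendritic cell markers were higher in 9 of 11 (median 0.14). Lysosome genes were higher in 17 of 18 in CD11c-CD11b+ cells (median 0.20) and in 1 of 18 in CD11c+CD11b- cells (median -0.25). Haemoglobin and platelet genes were higher in 0 of 4 (median -0.70), 0 of 5 (median -0.62), 0 of 4 (median -0.94) and 3 of 5 (median 0.07). Markers of B cells and mast cells were nearly absent, with at most 1 member at 10 CPM in a population.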
